A study of Mus musculus with 32 samples.

Results

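The 9 genes described here, Ager, Hopx, Rtkn2, Cldn18, Pdpn, Emp2, Cav1, Akap5 and Clic5, are expressed at high levels by alveolar type 1 (AT1) cells of the lung. They were chosen by name, and each matched 1 gene identifier, so that all 9 were found among the 41687 rows of the deposited table of estimated counts. The material was whole lung from 12 adult mice, 8 to 18 weeks old: 6 wild type (WT) and 6 Bmal1 knock-outs (KO), the former of the C57b/6 strain and both bred in-house. Each lung gave an rRNA pull-down library (RiboZero) and a poly(A)-selected library (PolyA), and mice 3 to 6 of each genotype also gave a library of total RNA without selection (NoSelect), for 32 libraries in all. RNA was taken from snap-frozen tissue, with 200 ng of input for RiboZero and PolyA and 15 ng for NoSelect, where each mouse was prepared in 6 replicates. All libraries carried molecular identifiers and 11 cycles of PCR. The knock-out allele, its driver and the time of day of collection are not given in the sources used here, and all mice are labelled female. Because mice are numbered separately in each genotype, WT 1 and KO 1 are different animals, and the replicates are separate mice.

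AT1 cells are the thin, flat epithelial cells that cover most of the gas-exchange surface of the lung, and they share a basement membrane with the capillary endothelium beneath them. They arise in development, and after injury, from progenitors that include the cuboidal alveolar type 2 (AT2) cells, under the control of the homeodomain factor Nkx2-1 and the Hippo effectors Yap1 and Wwtr1 acting with TEAD factors. Bmal1, whose gene is named Arntl in the table, is a basic helix-loop-helix factor of the circadian clock that binds E-box sequences with a partner.

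Among the genes at the cell surface, Ager encodes the receptor for advanced glycation end products, Cldn18 a claudin of alveolar tight junctions and Pdpn the mucin-type glycoprotein podoplanin, long used as an AT1 marker. Emp2, a tetraspan membrane protein, and Cav1, the main scaffold protein of caveolae, are linked to the caveolae of the flat cells. Inside the cell, Hopx encodes a small homeodomain protein that binds no DNA of its own, Rtkn2 an intracellular signalling protein, Akap5 a scaffold that anchors protein kinase A near the membrane, and Clic5 a chloride intracellular channel family protein tied to the cortical actin skeleton. Several of these genes are also transcribed elsewhere in the lung: Cav1 is abundant in endothelium, and podoplanin marks lymphatic vessels and mesothelium. In bulk tissue, fewer cells of a type and less RNA per cell cannot be told apart.

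Promoter sequences are shown for 4 start sites as a description, since Bmal1 acts through E-boxes. Whether any of the letters bears on the levels measured here was not tested. RefSeq's promoter table (GRCm38.p6) matched 8 of the 9 members with 11 promoters, and Rtkn2 was not matched. Each window in the table ran from 250 bases before a start site to 50 bases after it, and bases -250 to -31 are printed. The letters searched, on both strands, were CACGTG (the canonical E-box), CAAGTG (an Nkx2-1 core) and GGAATG (a TEAD core), and a match is in capitals below.
Hopx, second start site, chr5:77095298-77095517, minus strand: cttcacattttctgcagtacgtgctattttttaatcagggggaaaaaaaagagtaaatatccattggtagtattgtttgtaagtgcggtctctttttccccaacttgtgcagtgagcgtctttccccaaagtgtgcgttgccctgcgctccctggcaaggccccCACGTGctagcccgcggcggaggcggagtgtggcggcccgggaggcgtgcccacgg
Pdpn, chr4:143299595-143299814, minus strand: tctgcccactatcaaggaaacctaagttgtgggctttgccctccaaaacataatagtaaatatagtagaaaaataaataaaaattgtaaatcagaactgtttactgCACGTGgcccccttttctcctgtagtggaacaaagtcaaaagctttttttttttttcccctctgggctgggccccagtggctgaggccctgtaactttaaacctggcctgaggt
Cldn18, second start site, chr9:99710094-99710313, minus strand: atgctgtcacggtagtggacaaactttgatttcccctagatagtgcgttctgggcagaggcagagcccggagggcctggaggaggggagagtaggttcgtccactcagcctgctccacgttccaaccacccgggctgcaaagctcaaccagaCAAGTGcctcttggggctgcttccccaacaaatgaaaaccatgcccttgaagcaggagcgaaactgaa
Ager, chr17:34597600-34597819, plus strand: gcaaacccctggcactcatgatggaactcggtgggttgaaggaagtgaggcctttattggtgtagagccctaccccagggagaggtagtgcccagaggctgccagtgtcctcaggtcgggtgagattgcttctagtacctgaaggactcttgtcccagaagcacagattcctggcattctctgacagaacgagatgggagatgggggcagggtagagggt

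The E-box letters stood at position -86 of the second Hopx start site and at position -144 of Pdpn. That Hopx start site lies inside the gene, which overlaps the antisense gene Hopxos. Of all 32851 promoters in the table, 7.15% held CACGTG. The Nkx2-1 letters stood at position -98 of the second Cldn18 start site, inside that gene, and at position 34 after the second Hopx start site, against 13.6% of all promoters. TEAD letters were in none of the 11 member promoters and in 14.7% of all promoters. The Ager window held none of the 3 motifs, and it is shown because Ager was the member with a called genotype difference.

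Total counts were 11638594 to 25801237 in RiboZero, 29924325 to 41548830 in PolyA and 74979802 to 115059756 in NoSelect, where 2 rows (Lars2 and Gm42418) held 69.2% ± 1.35 (SD, n = 8) of the counts. Members had at least 456.5 counts in every library, for which counting error alone is 4.68%. Arntl fell in KO by 0.83 (RiboZero), 0.27 (PolyA) and 0.69 (NoSelect) on the log2 scale, with adjusted p of 2.46e-05, 0.0262 and 0.000451 (edgeR quasi-likelihood test), and was not at 0 in any KO library. The NoSelect library of KO mouse 6 is labelled as liver, yet its 6 liver markers summed to 29 counts, within the 4 to 49 of the other NoSelect libraries, and its Ager level was 1074 CPM. KO mouse 6 is labelled female but had 2195 to 2967 counts of the Y-linked gene Ddx3y in its 3 libraries, where the other mice had 0, and results are therefore also given without this mouse.

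Levels were first compared between members per kilobase of annotated exon (GENCODE M21), as counts scaled to a common library size over all 32 libraries (CPM). Ager stood highest in every group. In RiboZero WT it had 448 ± 32.8 CPM per kilobase (SD, n = 6), and no library of another member reached its lowest value of 408. Cav1 at 195 ± 17.5 and Hopx at 173 ± 16.8 followed (SD, n = 6), with overlapping ranges of 169 to 211 and 151 to 193. Clic5 (97.4), Cldn18 (84.4), Akap5 (77.7) and Emp2 (71.7 CPM per kilobase, means of 6) formed a run in which each gene overlapped its neighbours. Rtkn2, at 44.4 ± 2.12, was below that run in all 6 libraries. Pdpn was last in every group, at 17.0 ± 0.886 CPM per kilobase in RiboZero WT (SD, n = 6). Pdpn was thus the least abundant of the 9 transcripts despite its use as a marker of the cell type.

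The order between those ends depended on the preparation. Hopx and Cav1 exchanged ranks 2 and 3, Akap5 ranged from rank 6 to 8 and Emp2 from 5 to 7. With the length of the longest annotated transcript in place of all exons, Ager stayed first, Pdpn last, and Hopx and Cav1 in ranks 2 and 3. The coefficient of variation between mice of 1 group ran from 3.20% (Emp2, NoSelect WT) to 27.4% (Akap5, PolyA WT), with group medians of 5.75% to 12.8%.

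**Figure D1:**
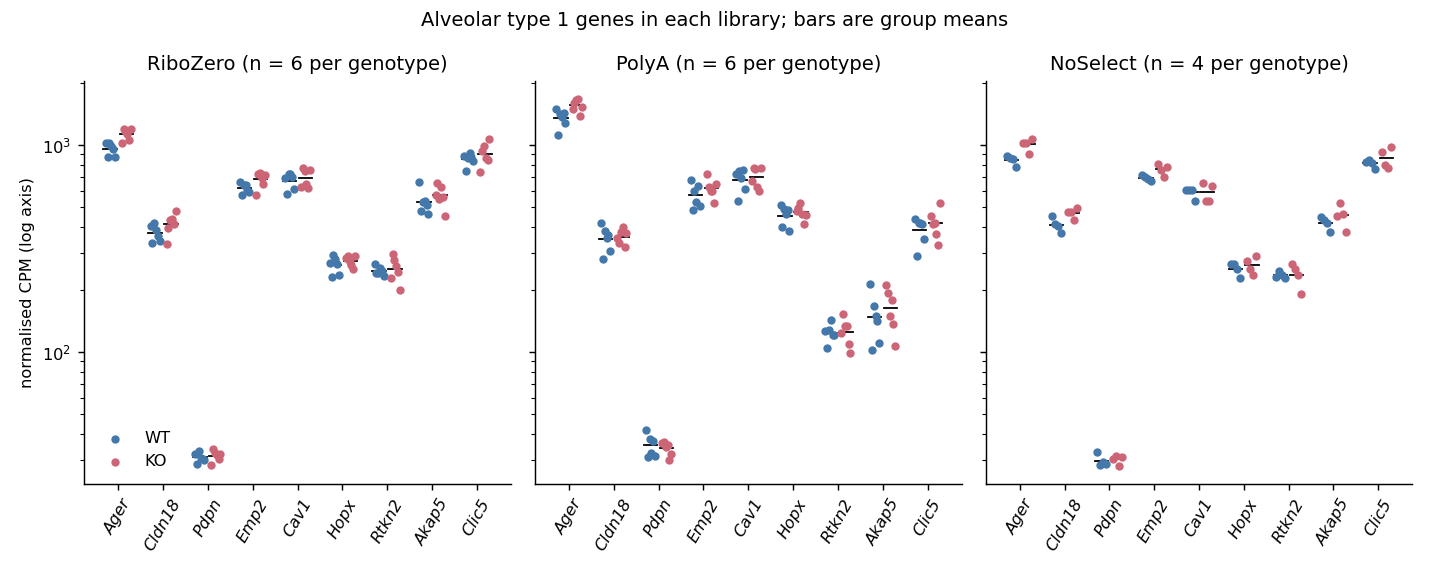
Normalised CPM (log axis) of the 9 genes in each library, by preparation (panels) and genotype (colours); each point is 1 mouse and bars are group means. Points of WT and KO overlap for most genes, while Ager in KO lies above WT in RiboZero (from 1027.5 against at most 1026.9 CPM) and NoSelect (from 908 against at most 882 CPM).

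The first comparison asked whether the loss of Bmal1 changed the level of AT1 genes in whole lung. Ager was the only member with a called difference, and in RiboZero alone: it rose by 17.6% in KO (95% interval 7.88 to 28.2%). The other 8 members had estimates from 1.62% to 10.7% higher in RiboZero, none of which passed the test. In all, 1 of 9 members was called in RiboZero, beside 3.46% of the 16710 rows tested (edgeR quasi-likelihood test, Benjamini-Hochberg adjusted p under 0.05). There, 2 members, Ager and Emp2, had an unadjusted p under 0.05 (16.4% of all rows), and DESeq2 called 1, Ager. PolyA had 0 of 9 called beside 4.03% of 17211 rows, with 1 member at an unadjusted p under 0.05 (18.0% of all rows) and 0 called by DESeq2. NoSelect had 0 of 9 beside 2.17% of 17124 rows, with 3 members at an unadjusted p under 0.05 (15.7% of all rows) and 1, Ager, called by DESeq2.

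In RiboZero, Ager had 873 CPM in the lowest WT library, a median of 975 and 1026.9 in the highest. The KO libraries had 1027.5 CPM at the lowest, a median of 1154 and 1196 at the highest. The groups did not overlap, although the lowest KO library (mouse 1) and the highest WT library (mouse 3) were nearly equal. Separation of this kind was found in 2.65% of all rows in RiboZero. The log2 fold change was 0.23 ± 0.058 (SE, n = 6 per genotype) with an adjusted p of 0.0435 (edgeR). This call lay close to the threshold and depended on single libraries. Leaving out 1 library at a time kept the log2 fold change between 0.21 and 0.26, but the adjusted p passed in only 2 of 12 such fits, those without WT 1 or KO 1, and ran from 0.0264 to 0.106. Without KO mouse 6 the log2 fold change was 0.22 (adjusted p = 0.0745).

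In NoSelect the 4 WT libraries had 882, 864, 852 and 781 CPM of Ager (mice 3 to 6). The 4 KO libraries had 1028, 1019, 908 and 1074 CPM. Every KO mouse lay above every WT mouse, a separation that 8.97% of all rows showed in that preparation of 4 against 4. The log2 fold change of 0.25 ± 0.061 (SE, n = 4 per genotype) had an adjusted p of 0.0822 with edgeR and 0.00250 with DESeq2, and without KO mouse 6 it was 0.22 (adjusted p = 0.108, edgeR). PolyA gave 1113 CPM in the lowest WT library, a median of 1385 and 1489.6 in the highest. The KO libraries ranged from 1379 CPM through a median of 1563 to 1662. In PolyA the genotypes overlapped, since KO mouse 5 was lower than WT mice 1, 3 and 5. The log2 fold change there was 0.17 ± 0.068 (SE, n = 6 per genotype; adjusted p = 0.202, edgeR), with a 95% interval of 1.67% to 24.8% higher. The estimates for Ager were thus of one sign and of similar size in the 3 preparations, which share mice and are not independent.

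Cldn18 had the second largest estimate in RiboZero and NoSelect, and the one closest to 0 in PolyA. Its RiboZero estimate was 0.15 ± 0.083 (SE, adjusted p = 0.424, edgeR) and its NoSelect estimate 0.18 ± 0.062 (adjusted p = 0.195). The NoSelect libraries had 451, 417, 404 and 376 CPM in WT mice 3 to 6 and 474, 472, 436 and 496 CPM in the KO mice. Only the KO 5 value fell below the highest WT value. In PolyA the estimate for Cldn18 was 0.00 ± 0.089 (SE), with an interval of -12.4% to 14.5%. Pdpn had estimates of 0.02 in RiboZero, -0.08 in PolyA and 0.02 in NoSelect on the log2 scale, and its RiboZero interval spanned -5.47% to 9.24%. In CPM, Pdpn ranged from 28.8 to 33.3 in WT and 28.4 to 33.9 in KO of RiboZero, from 30.9 to 42.0 and 30.04 to 36.7 in PolyA, and from 28.4 to 32.7 and 28.2 to 31.4 in NoSelect. In RiboZero the KO range took in the WT range and passed both of its ends. In PolyA and NoSelect only KO mouse 5 lay outside the WT range, below it.

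Of the caveola-linked pair, Emp2 had estimates of 0.13 in RiboZero, 0.08 in PolyA and 0.13 in NoSelect on the log2 scale, with adjusted p of 0.299, 0.694 and 0.250 (edgeR). Cav1 had 0.04, 0.02 and 0.00. In RiboZero, Emp2 had 575 to 666 CPM in WT and 573 to 729 CPM in KO, and Cav1 582 to 727 and 622 to 771 CPM. The genotypes overlapped in both genes, and the RiboZero interval of -7.91% to 15.5% for Cav1 takes in both signs.

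The intracellular members had estimates of at most 0.12 in size, and none was called. Hopx had log2 estimates of 0.07, 0.02 and 0.05 in RiboZero, PolyA and NoSelect. Rtkn2 had 0.02, -0.01 and 0.00, Clic5 0.08, 0.07 and 0.09, and Akap5 0.10, 0.11 and 0.12. Rtkn2 ranged more widely in KO (198 to 295 CPM) than in WT (232 to 265 CPM) of RiboZero, and the KO range took in the WT range. Akap5 was measured least precisely, with a PolyA interval of -19.3% to 44.2%. The highest adjusted p of these 4 genes was 0.992 (Rtkn2, NoSelect) and the lowest 0.615 (Akap5, NoSelect; edgeR).

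As a description of the list, the median log2 fold change of the 9 members was 0.08 in RiboZero, 0.02 in PolyA and 0.09 in NoSelect, where the median over all rows tested was 0.00 in each. The estimate was above 0 for 9, 7 and 9 of 9 members, beside 8355 of 16710, 8475 of 17211 and 8588 of 17124 rows tested. It was above 0 for 5, 5 and 7 of the 16 further AT1 genes described below. The members are not independent, since their levels largely moved together from mouse to mouse, as given below. Their summed level was 4093 to 4911 CPM in WT and 4413 to 5297 CPM in KO of RiboZero, 3339 to 4646 and 3835 to 4658 CPM in PolyA, and 3996 to 4456 and 4315 to 4917 CPM in NoSelect. The sums of WT and KO overlapped in all 3 preparations.

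**Figure D2:**
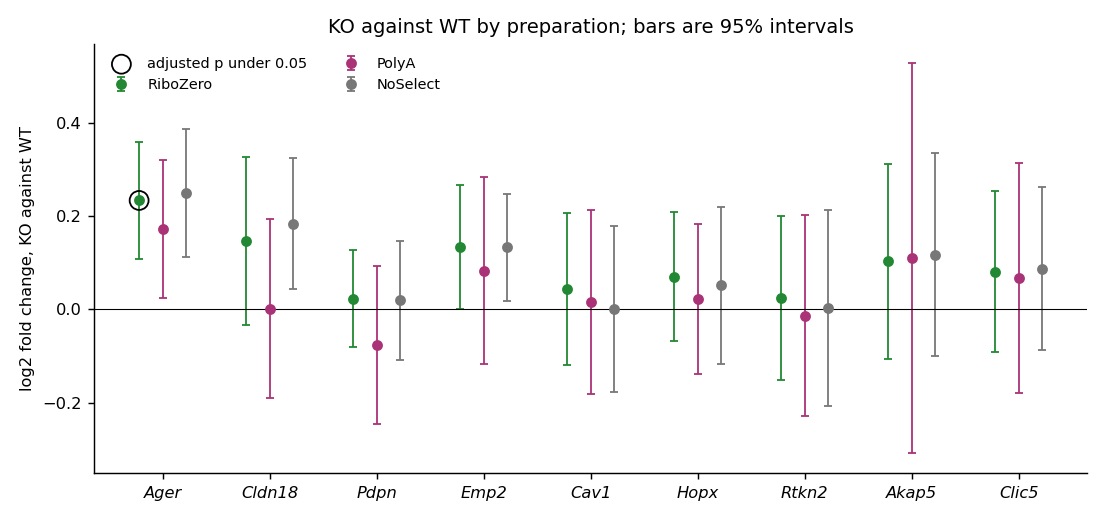
Log2 fold change of KO against WT for each gene by preparation (colours), with 95% intervals; the open circle marks an adjusted p under 0.05. Only Ager in RiboZero (0.23) is marked, and its PolyA (0.17) and NoSelect (0.25) estimates lie within the interval of the RiboZero value.

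Some marker genes of other lung cells also differed in level between WT and KO libraries. Of 10 endothelial markers, 9 in RiboZero, 10 in PolyA and 10 in NoSelect had estimates above 0, with medians of 0.16, 0.16 and 0.15 on the log2 scale. Only Egfl7, a secreted endothelial factor, passed the test, in NoSelect, at 0.31 ± 0.048 (SE, adjusted p = 0.0173, edgeR). Their summed level overlapped between genotypes in RiboZero (2550 to 2935 CPM in WT, 2754 to 3341 CPM in KO). It did not overlap in PolyA (2139 to 2643 and 2648 to 2935 CPM) or NoSelect (2496 to 2726 and 2759 to 3149 CPM). In PolyA the highest WT sum and the lowest KO sum, 2643.3 and 2648.2 CPM, were nearly equal. The 11 AT2 markers had 3 estimates above 0 in each preparation, and their sums overlapped (10412 to 13406 CPM in WT and 9554 to 13118 CPM in KO of RiboZero). All 6 lymphatic markers were below 0 in RiboZero and PolyA, and 5 of 6 in NoSelect. The lymphatic sum did not overlap between genotypes in RiboZero (347 to 414 CPM in WT, 266 to 320 CPM in KO), PolyA (277 to 363 and 217 to 253 CPM) or NoSelect (345 to 394 and 254 to 303 CPM). Single rows did not overlap between genotypes in 2.65% (RiboZero), 3.06% (PolyA) and 8.97% (NoSelect) of cases, and no such share was computed for sums. No marker of the 3 lists was at 0 in any library. The part of these differences in the values of Ager, Cav1 and Pdpn was not tested.

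The other genes of the AT1 programme had calls in both directions. Of 16 further AT1 genes, 3 rose and 1 fell in RiboZero, 0 rose and 1 fell in PolyA, and 2 rose and 0 fell in NoSelect. These calls stand beside 3.46%, 4.03% and 2.17% of all rows called in RiboZero, PolyA and NoSelect. Col4a3 and Col4a4, which encode chains of basement membrane collagen IV, rose in KO by 0.42 ± 0.089 and 0.42 ± 0.081 in RiboZero (log2, SE; adjusted p of 0.0209 and 0.0127, edgeR) and by 0.44 ± 0.049 and 0.42 ± 0.043 in NoSelect (adjusted p of 0.00378 and 0.00250). Cav2, the partner of Cav1 in caveolae, rose by 0.25 ± 0.064 in RiboZero (adjusted p = 0.0483) and was called in no other preparation. In PolyA, Col4a3 and Col4a4 were not called, and no estimate of this list was above 0.23. Spock2, a secreted proteoglycan, fell by 0.42 (log2) in RiboZero (adjusted p = 0.0168, edgeR) and by 0.53 in PolyA (adjusted p = 0.0403). In NoSelect it was not called, with means of 341 CPM in WT and 269 CPM in KO. The medians of this list were -0.04, -0.07 and -0.04 in RiboZero, PolyA and NoSelect. Among 7 regulators of AT1 fate, the lowest adjusted p was 0.159 in RiboZero, 0.166 in PolyA and 0.192 in NoSelect (edgeR). Of 6 caveolar coat genes, Cav2 in RiboZero was the one called.

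AT2 cells supplied a contrast between genes. Sftpa1, a surfactant protein, fell in KO by 0.49, 0.66 and 0.57 (log2; RiboZero, PolyA and NoSelect; adjusted p of 0.00776, 0.00457 and 0.0178, edgeR). Cxcl15, the lung-specific chemokine lungkine, rose by 0.57, 0.54 and 0.48 (adjusted p of 0.00105, 0.00395 and 0.0262). The remaining AT2 calls were Sftpd in PolyA and NoSelect (-0.50 and -0.59) and Napsa in PolyA (-0.43). Over all rows, 3.46%, 4.03% and 2.17% were called in RiboZero, PolyA and NoSelect. Reln, an extracellular matrix protein of lymphatic endothelium, fell in all 3 preparations, by 0.51, 0.68 and 0.61. No such repeated call was made for any of the 9 AT1 members.

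The next question was whether the genotype difference depended on the preparation. None of the 9 members had a called interaction of genotype and preparation in any of the 3 pairs of preparations (edgeR quasi-likelihood test), where 0% of the 18164, 18372 and 17502 rows tested were called. No member had an unadjusted p under 0.05, against 331, 412 and 244 of all rows (1.82%, 2.24% and 1.39%), and DESeq2 called 0 members. Those shares are below 0.05 of the rows, the share that chance alone would give. This fit took the libraries of 1 mouse as independent, so it was conservative and its lack of calls says little. With the mouse as a block, still 0 members were called, and 4 members had an unadjusted p under 0.05 for PolyA against NoSelect, as did 7.99% of all rows in that fit. The largest difference was that of Cldn18, whose KO effect in PolyA differed from that in NoSelect by -0.20 ± 0.132 (log2, SE), with a 95% interval of -0.48 to 0.07. For Ager the PolyA effect differed from that in RiboZero by -0.04 (interval -0.24 to 0.16) and from that in NoSelect by -0.10 (interval -0.33 to 0.13). The intervals given here come from the fit without the mouse as a block, and those of Ager are wide beside its difference of 0.23 in RiboZero.

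The preparations were compared next, over the libraries of both genotypes. Akap5 and Clic5 were lower in PolyA than in the other preparations by more than the fold of 2 required here (an absolute log2 of at least 1), while Hopx and Ager were higher. In PolyA against RiboZero, 2 of 9 members were called at that fold beside 23.6% of 18164 rows, and 7 of 9 at any fold beside 81.1%. In PolyA against NoSelect the counts were 2 of 9 beside 25.1% of 18372 rows, and 9 of 9 at any fold beside 79.1%. In RiboZero against NoSelect, 0 of 9 were called at that fold by edgeR or DESeq2 beside 4.3% of 17502 rows, and 5 of 9 at any fold beside 45.9%, the same number as at an unadjusted p under 0.05. With the mouse as a block, 9 of 9 passed at any fold in that last comparison, beside 57.8% of rows, and 8 of 9 in PolyA against RiboZero, where Emp2 was added, beside 87.2%. Leaving out KO mouse 6 left 2, 2 and 0 members called at the required fold.

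Akap5 had 462 to 664 CPM in the WT and 455 to 652 CPM in the KO libraries of RiboZero. In PolyA it had 102 to 213 CPM in WT and 107 to 211 CPM in KO. No PolyA library reached the lowest RiboZero library. The log2 fold change of PolyA against RiboZero was -1.83 ± 0.114 (SE, 12 libraries each, adjusted p = 1.4e-13, edgeR), a change of -71.8%. Against NoSelect it was -1.46 ± 0.128 (adjusted p = 1.33e-09). NoSelect libraries had 381 to 448 CPM in WT and 381 to 526.4 CPM in KO. Between RiboZero and NoSelect, Akap5 had the largest difference of the 9 genes, at 0.33 ± 0.073 (adjusted p = 0.00103).

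Clic5 had 752 to 913 CPM in WT and 741 to 1066 CPM in KO of RiboZero, and 291 to 440 CPM in WT and 328 to 523 CPM in KO of PolyA. Again the preparations did not overlap. Its log2 fold changes were -1.12 ± 0.075 against RiboZero (adjusted p = 5.54e-13, edgeR) and -1.01 ± 0.082 against NoSelect (adjusted p = 3.24e-10). NoSelect libraries had 769 to 847 CPM in WT and 771 to 973 CPM in KO. The second value lies near the required fold and missed it without WT mouse 2 (-0.98), without a filter on low counts (-0.95) and without Lars2 and Gm42418 (-0.995). Rtkn2 fell just short, at -0.99 ± 0.067 against RiboZero and -0.88 ± 0.073 against NoSelect, with adjusted p of 7.21e-13 and 5.39e-10. Rtkn2 passed the fold against RiboZero with median-of-ratios scaling (-1.04), with DESeq2 (-1.04), with at least 10 counts required in every library (-1.04) and in 3 of the fits that left out 1 mouse.

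Hopx went the other way. It had 229 to 293 CPM in RiboZero and 385 to 523 CPM in PolyA over both genotypes, with no overlap, and 227 to 290 CPM in NoSelect. The log2 fold changes were 0.79 ± 0.052 against RiboZero and 0.89 ± 0.061 against NoSelect (adjusted p of 4.14e-13 and 2.22e-11, edgeR). Ager was higher in PolyA by 0.48 ± 0.048 and 0.69 ± 0.055 (adjusted p of 1.28e-09 and 3.14e-10). The antisense gene Hopxos covers 27.2% of the exonic bases of Hopx. Of the 31-base words of Hopx, 26.2% also occur in some other gene, and Hopxos holds the most of them. Whether the counting used strand is not given in the sources used here, so reads of the Hopx locus may belong to either gene. Rtkn2 shares 4.22% of its 31-base words with all other genes together, the antisense gene Gm16212 holding the most. The other members share at most 2.28% in the same way.

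The 4 remaining members moved by at most 0.27 on the log2 scale between any of the preparations. Pdpn was higher in PolyA by 0.16 ± 0.047 against RiboZero and 0.25 ± 0.058 against NoSelect (adjusted p of 0.00319 and 0.000488, edgeR). Cldn18 had -0.15 and -0.26, with adjusted p of 0.0427 and 0.00152, and passed against RiboZero in 11 of 20 alternatives. Emp2 had -0.12 against RiboZero (adjusted p = 0.0507, or -0.13 and 0.0192 with the mouse as a block) and -0.25 against NoSelect (adjusted p = 0.00164). Cav1 had 0.02 against RiboZero (adjusted p = 0.801), a sign that turned to -0.03 with median-of-ratios scaling, and 0.27 against NoSelect (adjusted p = 0.00161).

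**Figure D3:**
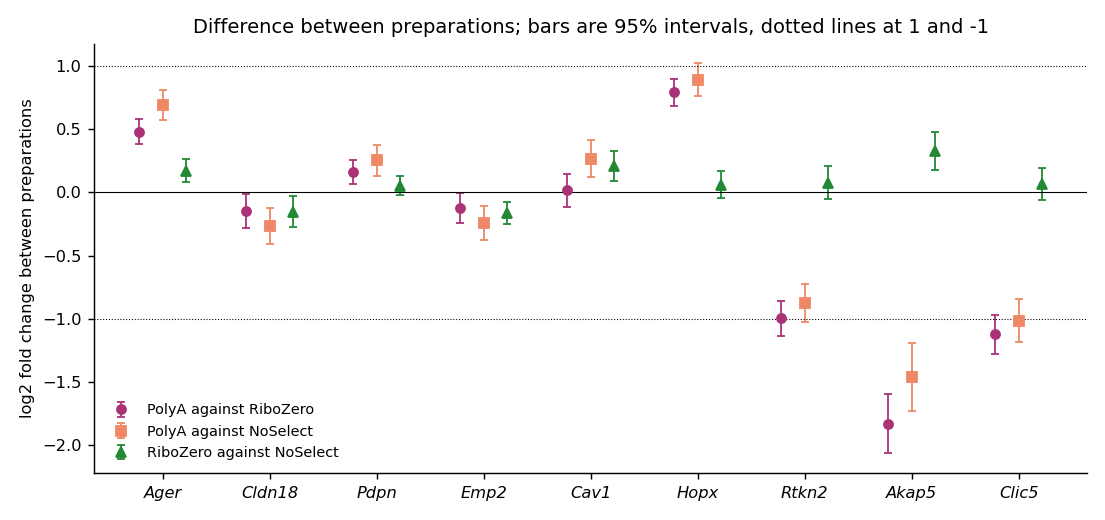
Log2 fold change between preparations for each gene over both genotypes, with 95% intervals; dotted lines mark the required fold at 1 and -1. Akap5 (-1.83 and -1.46) and Clic5 (-1.12 and -1.01) lie beyond -1 in both comparisons of PolyA, Rtkn2 at -0.99 and -0.88 lies at the line, and Hopx (0.79 and 0.89) is the highest.

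Of the 16 further AT1 genes, 5 were lower and 1 higher in PolyA than in RiboZero past the required fold, and 5 and 0 in PolyA against NoSelect, beside the 23.6% and 25.1% of all rows called in either direction. Ndnf (-2.89), Col4a3 (-2.23), Col4a4 (-2.19) and Sema3a (-1.77) had the largest changes, and Lmo7 had -1.07 and Gramd2 1.21. Gramd2 had 0.44 against NoSelect, short of the required fold. Of the 7 regulators, Nkx2-1 was higher at 1.49 and Wwtr1 (-1.13) and Tead1 (-1.07) were lower in PolyA against RiboZero. Each gene named for that comparison had an adjusted p of at most 9.46e-15 (edgeR). In PolyA against NoSelect, Nkx2-1 had 0.41, Wwtr1 -0.998 (just short of the fold), Tead1 -1.53 and Klf5, the lowest of the 7, -1.73. Between RiboZero and NoSelect, 2 of the 7 were lower in RiboZero past the fold, Klf5 at -1.15 and Nkx2-1 at -1.12, beside 4.3% of all rows called.

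Because each mouse gave a RiboZero and a PolyA library, the members could be followed from mouse to mouse. For each gene the genotype mean was subtracted from the log2 CPM, and the deviations of the 12 mice were compared between preparations. In 6 of 9 members the same mice were high in both preparations at an adjusted p under 0.05 (Pearson, 100000 permutations of mice within genotype, two-sided, adjusted over the 9 members). Cav1 had r = 0.92 (Spearman = 0.79, permutation p = 0.00108, adjusted 0.00486) and kept r = 0.88 without the 2 mice farthest from the median. Akap5 had r = 0.89 (Spearman = 0.92, permutation p = 0.000480, adjusted 0.00432) and 0.79 without 2 mice. Ager had r = 0.76 (Spearman = 0.64, permutation p = 0.00651, adjusted 0.0195) and 0.70 without 2 mice. By Spearman's coefficient, Cav1 (adjusted permutation p = 0.0236), Akap5 (0.00243), Rtkn2 and Cldn18 (0.0400 each) passed, 4 of 9, while Ager (0.0599) and Hopx (0.0859) did not. Such sharing was general: over 12584 other rows the median r was 0.56, 7 of 9 members lay above it, and 25.8% of the rows had an r at or above that of Ager, 10.1% that of Akap5 and 6.66% that of Cav1.

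Hopx (r = 0.77, Spearman = 0.59, adjusted permutation p = 0.0279) dropped to 0.55 without WT mice 2 and 6, and Rtkn2 (r = 0.79, Spearman = 0.74, adjusted permutation p = 0.0198) to 0.47 without KO mice 6 and 2, on which these relations partly rest. Cldn18 (r = 0.62, Spearman = 0.73, adjusted permutation p = 0.0381) had 0.87 without KO mice 1 and 6. Clic5 (r = 0.58, Spearman = 0.62, adjusted permutation p = 0.0735), Pdpn (r = 0.48, Spearman = 0.63, adjusted permutation p = 0.137) and Emp2 (r = 0.08, Spearman = 0.34, adjusted permutation p = 0.800) did not pass. Without KO mouse 1 and a second mouse, these 3 had r of 0.86, 0.75 and 0.54. Without KO mouse 6 alone, r was 0.81 for Ager, 0.83 for Hopx, 0.65 for Rtkn2, 0.64 for Cldn18, 0.52 for Pdpn, 0.05 for Emp2, 0.92 for Cav1, 0.85 for Akap5 and 0.41 for Clic5.

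The deviations were largely shared by the members. WT mouse 1 lay above the WT mean for 9 of 9 members in both preparations, and WT mice 2 and 6 lay below it for 9 of 9 in both. KO mouse 5 was below the KO mean for 8 members in RiboZero and 9 in PolyA. The mean deviation of the 9 genes in WT mouse 2 was -0.14 in RiboZero and -0.29 in PolyA on the log2 scale, larger in size than the median KO difference. KO mouse 1 differed between its libraries, below the mean for 7 of 9 members in RiboZero and above it for 5 of 9 in PolyA. KO mouse 6 combined the lowest KO values of Akap5 (455 CPM in RiboZero and 107 CPM in PolyA) and Rtkn2 (198 and 98.7 CPM) with the highest of Clic5 (1066 and 523 CPM). The 9 genes therefore did not move as 1 unit in that mouse.

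**Figure D4:**
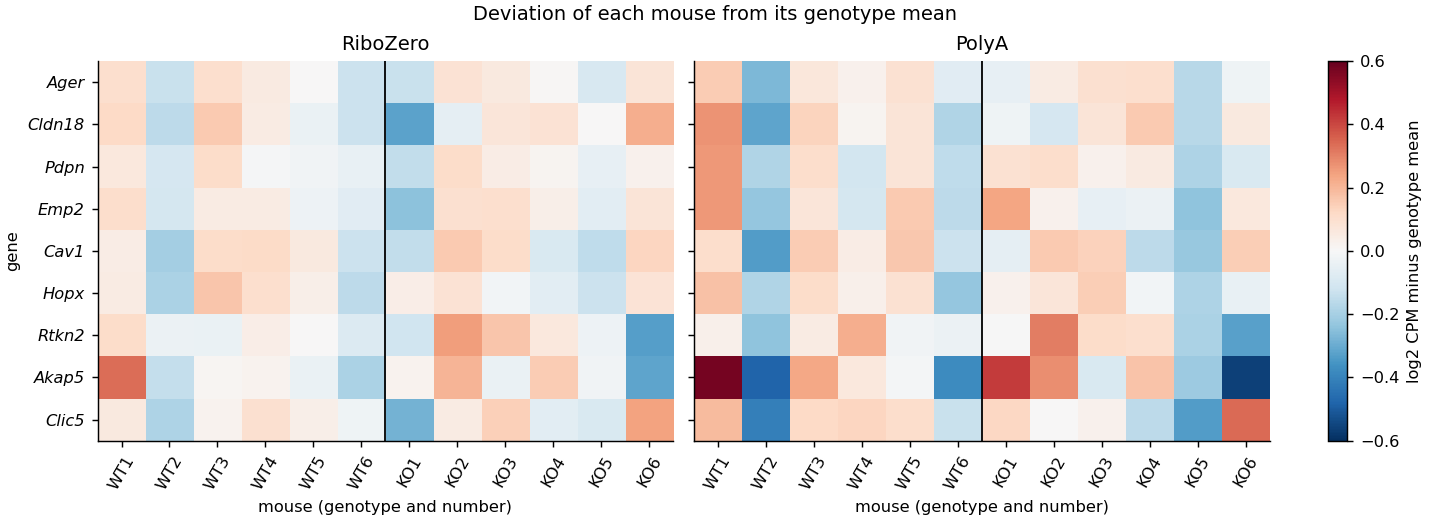
Deviation of log2 CPM from the genotype mean (colour, log2 units) for each gene (rows) and mouse (columns) in RiboZero and PolyA. WT mice 2 and 6 are below the mean in all 9 genes in both panels and WT mouse 1 above it, while KO mouse 6 has low Rtkn2 and Akap5 beside high Clic5.

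Over the 36 pairs of members, the correlation of deviations across the 12 mice had a median of 0.60 in RiboZero (-0.13 to 0.91) and 0.67 in PolyA (0.18 to 0.89). These are descriptions over libraries that share depth and scaling within a mouse. Ager with Cav1 (0.91), Pdpn with Emp2 (0.91) and Ager with Pdpn (0.90) were the closest pairs in RiboZero, and Ager with Cldn18 (0.89) in PolyA. Akap5 with Clic5 was the lowest pair in RiboZero and Rtkn2 with Clic5 in PolyA. Measured against the mean deviation of all 9 genes, Ager (mean r of the 2 preparations 0.94) and Pdpn (0.92) were closest to it and Rtkn2 (0.56) farthest. Each member is part of that mean, which raises its r, so these values cannot be set beside those of other rows. Among 12584 other rows whose mean log2 CPM was 1 or more, those most like the mean deviation of the members were Abca5, a lipid transporter of the ABC family (mean r = 0.93), Slc39a8, a zinc and manganese importer (0.90), Rab12, a small GTPase (0.89), Rassf8, a Ras association domain protein (0.88), and Adam10, a membrane sheddase (0.87), each over 12 mice in 2 preparations.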

How the data were processed

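Estimated counts for each gene, as deposited by the authors in 1 table, came from Salmon 1.4.0, with UMI-tools 1.1.1 and the build GRCm38, per the submitters' processing notes. How duplicates were treated and the annotation are not given in the sources used here. Of the values, 12.8% were not whole (tolerance 1e-06), and they were rounded. All columns were matched to libraries by name. The 9 members and all other lists were chosen with earlier results of these data known.

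KO and WT were compared within each preparation with edgeR 4.0.16 (R 4.3.3; TMM scaling, filterByExpr, quasi-likelihood test, Benjamini-Hochberg adjustment over all rows tested, call at an adjusted p under 0.05). Preparations were compared with genotype as a covariate and a required log2 fold change of 1 or more in size, and genotype differences between preparations by an interaction. Scripts were tested on simulated data. Levels are CPM on a TMM scale over 32 libraries and 18967 rows, with a prior count of 2 on the log2 scale. Intervals are 95% from the fit.

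All members were named throughout. Genes of other lists were named where they passed, at most 4 per list by size, and others only by counts, except regulators and further AT1 genes named beside a preparation count. The 5 rows most like the members had the highest mean r.

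Replicates of a group differed by more than sampling noise (chi-square per degree of freedom 6.67 to 65.9 over 72 pairs). Libraries of 1 mouse deviated together over 4652 rows (r of 0.497 to 0.896 for PolyA and RiboZero, 0.548 to 0.712 for PolyA and NoSelect, 0.577 to 0.749 for RiboZero and NoSelect), so the mouse pairs the preparations. Alternatives were other scaling, DESeq2 1.42.0, other filters, a block, and libraries left out.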

Additional observations from a re-analysis of the deposited data

Results flagged for a closer look

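In 2 of the 54 sets formed by 1 gene in 1 group, a single mouse stood apart from the rest by Dixon's criterion, which chance meets in about 1 of 20 sets. Cav1 in NoSelect WT was lowest in mouse 6, at 538.4 CPM, where the other 3 WT mice had 604.7 to 607.5 CPM. The same mouse was below the WT mean for all 9 genes in RiboZero and PolyA. Akap5 in RiboZero WT was highest in mouse 1, at 663.6 CPM, where the other 5 WT mice had 462.1 to 534.8 CPM. Its PolyA library was also the highest of the WT mice for Akap5, at 212.7 CPM.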

How the results depend on the processing

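Ager in RiboZero was the 1 member called there, and the count fell to 0 without a filter on low counts (Ager adjusted p = 0.0746), with mice 3 to 6 alone (0.116) and with the label number as a replicate block (0.143), which names different animals in WT and KO. Leaving out 1 library at a time gave 0 to 1 members called there. In PolyA the count rose from 0 to 1 with all 32 libraries in 1 fit (Ager, adjusted p = 0.0438), and in NoSelect from 0 to 1 with DESeq2 (0.00250). For PolyA against NoSelect it fell from 2 to 1 without a filter, without Lars2 and Gm42418, and over the fits that each left out 1 mouse it ran from 1 to 2. No called value changed sign. With the replicate block, whose numbers correlated between WT and KO from -0.08 to 0.37, calls over all rows went from 579 to 372 in RiboZero, from 694 to 617 in PolyA and from 372 to 103 in NoSelect, and with DESeq2 to 976, 1355 and 878. With the mouse as a replicate block the called members stayed at 2, 2 and 0 between preparations and at 0 for the interactions. Leaving out KO mouse 6 together with that block, or WT mouse 2 and KO mouse 1, was added after seeing the data and gave the same counts. Over all alternatives the median log2 fold change of the members ran from 0.05 to 0.11 in RiboZero, -0.03 to 0.07 in PolyA and 0.04 to 0.10 in NoSelect. The causes were not tested.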

Other observations

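Markers of airway cells and of the lung's lining were also measured. All 4 club cell markers and all 4 ciliated cell markers had estimates above 0 in each preparation, with medians of 0.38 and 0.35 in RiboZero, 0.34 and 0.33 in PolyA, and 0.41 and 0.31 in NoSelect on the log2 scale. None passed the test. Their lowest adjusted p was 0.166 and 0.113 in RiboZero, 0.204 and 0.156 in PolyA, and 0.206 and 0.216 in NoSelect (edgeR). Of 6 mesothelial markers, 5 were below 0 in each preparation, and the exception, Upk1b, a uroplakin, rose by 0.68 ± 0.121 in RiboZero (SE, adjusted p = 0.00770) and 0.50 ± 0.100 in NoSelect (adjusted p = 0.0447, edgeR). Lyve1 and Ccl21a, a receptor and a chemokine of lymphatic vessels, fell by 0.53 and 0.31 in RiboZero (adjusted p of 0.0206 and 0.0460). Ahsg, a liver glycoprotein, fell by 1.56 in PolyA (adjusted p = 0.00413), and the 2 liver markers that passed the filter on low counts, Alb and Ahsg, summed to at most 1.64 CPM in any library.

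Markers of alveolar macrophages (lowest adjusted p of 0.346, 0.457 and 0.439 in RiboZero, PolyA and NoSelect), lymphocytes (0.696, 0.439 and 0.255), cardiomyocytes (0.419, 0.273 and 0.671) and basal cells (0.493, 0.638 and 0.621) held no called gene (edgeR).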
